A study of Rattus norvegicus and Bos taurus with 12 samples.

Results

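The mitochondrial carrier family (SLC25A) and the mitochondrial protein import machinery (TIMM and TOMM) were followed in 2 RNAseq comparisons, adult rat ventricular myocytes (ARVM) kept in the conditioned media of fibroblasts from calves with pulmonary hypertension (PH-CM) against freshly isolated ARVM, and bovine cardiac fibroblasts (Cfib) from calves with pulmonary hypertension (PH) against those from control calves (CO). Members were taken by name alone, as every listed gene whose symbol starts with Slc25a, Timm or Tomm, in any case. This gave 37 of the 7052 genes listed for ARVM, of which 22 were carriers and 15 were import genes, and 10 of the 2115 genes listed for Cfib, of which 9 were carriers and 1 was an import gene. The RefSeq annotation of rat GRCr8 names 81 protein-coding genes of this kind, so 44 were not listed for ARVM, which says nothing about their level. Over both tables the members were 47 of 9167 entries and 42 different symbols, with 5 genes in both. The authors deposited only genes that they had selected for a difference between the groups, so every test of a member repeats a selection already made on the same libraries.

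The ARVM came from healthy Sprague Dawley rats. The 3 control libraries (numbered 4, 5 and 6) were freshly isolated cells, and the 3 PH-CM libraries (called A, B and C here, in the order of their numbers) were cells held in the media for 7 days according to the labels, so the contrast joins the media with the time in culture, and these cannot be told apart. The Cfib were cultured at low passage from the right ventricle of neonatal calves, 3 libraries from CO calves housed at Denver altitude and 3 from PH calves exposed to low atmospheric pressure. For the Cfib the paper states 3 animals per group. The labels call the treatment serum of low-altitude or high-altitude cows, which differs from the paper's account used here. A group always held 3 libraries, and whether the ARVM libraries came from separate rats was not stated, so p-values may measure only technical spread.

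Carriers of the SLC25 family sit in the inner mitochondrial membrane and exchange nucleotides, phosphate, carboxylates, amino acids, cofactors and acylcarnitines between the cytosol and the matrix. Nearly all mitochondrial proteins, the carriers included, are made in the cytosol and enter through the TOM complex of the outer membrane. The TIM23 complex then takes up proteins with a presequence, while the small TIM chaperones of the intermembrane space hand carrier precursors to the TIM22 complex. Cardiac myocytes are rich in mitochondria, and Slc25a4 is known as the adenine nucleotide translocase typical of heart and skeletal muscle.

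The deposited ARVM values are normalized counts, in which each library was scaled by its own size factor. Undoing that scaling gave whole reads, which amounted to between 12122463 (freshly isolated 4) and 18842171 (PH-CM A) per library on the listed genes. Differences are given as log2 fold changes on the log2(value + 1) scale from limma, which understates the change of genes with few reads, and adjusted p-values are Benjamini-Hochberg values over all listed genes with a threshold of 0.05. Of the listed ARVM genes 97.6% passed this test in either direction, and the groups did not overlap in any of the 7052 genes, so passing it says little about a member, and direction and size are what is described below.

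Most carriers and every listed import gene were lower in PH-CM ARVM than in freshly isolated ARVM. Of the 37 members all passed the threshold, 32 lower and 5 higher, whereas 43.7% of all listed genes passed as lower and 53.9% as higher. Among the 22 carriers 17 fell and 5 rose, and all 15 import genes fell. The median log2 fold change was −0.83 for carriers and −0.81 for import genes, against 0.37 over all listed genes. The carriers were far more spread than the import genes, with log2 fold changes from −3.82 to 2.77 and an interquartile range of 1.35, against −1.35 to −0.39 and an interquartile range of 0.52. A fall of at least 1 on the log2 scale was seen in 11 carriers and 4 import genes and in 16.0% of all listed genes, and a rise of that size in 3 carriers, in none of the 15 import genes and in 32.3% of all listed genes. The 3 carriers with a mean under 50 were all among the 11 that fell by at least 1. The carrier median was −0.54 when these 3 were left out, and that of the import genes stayed at −0.81 under the same filter. Together the carriers took 0.979% to 1.02% of the reads on listed genes in freshly isolated ARVM and 0.318% to 0.344% in PH-CM ARVM, and the import genes 0.334% to 0.350% and 0.267% to 0.281%.

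**Figure D1:**
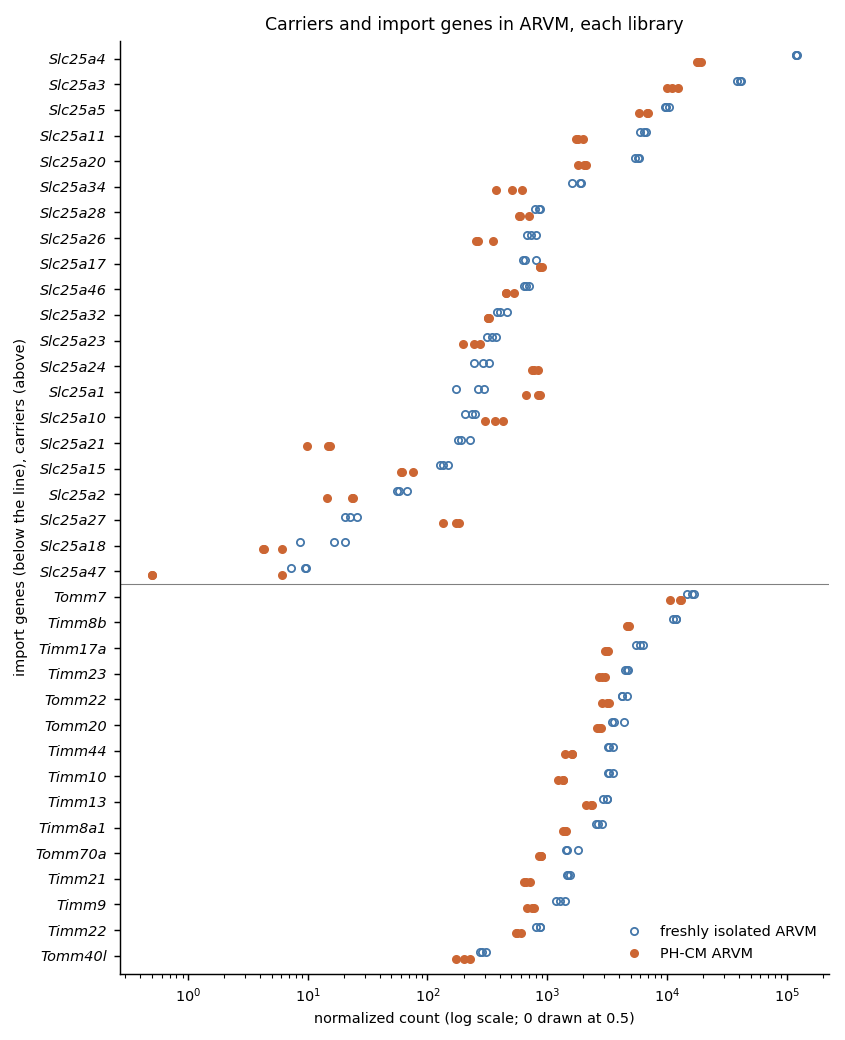
Normalized counts of the carriers reported by name (above the line) and 15 import genes (below it) in each of the 3 freshly isolated (open circles) and 3 PH-CM (filled circles) ARVM libraries, on a log axis with 0 drawn at 0.5. The filled circles lie to the left of the open ones for all 15 import genes and most carriers, and to the right for Slc25a17, Slc25a24, Slc25a1, Slc25a10 and Slc25a27.

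The largest loss in reads was that of Slc25a4 (adenine nucleotide translocase 1), which exchanges ADP for ATP across the inner membrane. Its normalized count was 119779, 122518 and 118860 in freshly isolated ARVM and 19351, 18299 and 17889 in PH-CM ARVM. The groups were far apart and each was tight, with means of 120386 ± 1903 and 18513 ± 754 (SD, n = 3), so that 15.4% of the level remained (log2 fold change −2.70, standard error 0.08, adjusted p = 1.33e-07 from limma). Slc25a4 alone took 0.624% to 0.646% of the reads on listed genes in freshly isolated ARVM and 0.126% to 0.136% in PH-CM ARVM. Its relative Slc25a5 (adenine nucleotide translocase 2), the form associated with proliferating cells, had 10432, 9864 and 9703 normalized counts against 6975, 5896 and 6857. It fell much less, to 65.8% of the freshly isolated level (log2 fold change −0.61, standard error 0.08, adjusted p = 0.000169 from limma). The RefSeq annotation holds 9 pseudogenes named after Slc25a5, and reads shared with such copies make its level uncertain. The ratio of Slc25a4 to Slc25a5 normalized counts, which does not depend on the scaling of the library, was 11.5, 12.4 and 12.25 in freshly isolated ARVM and 2.77, 3.10 and 2.61 in PH-CM ARVM. The ratio was lower in all 3 PH-CM libraries, a change of −2.09 on the log2 scale, with a two-sided exact permutation p of 0.1, which is the smallest that 3 libraries against 3 allow. The counts are not corrected for transcript length, so the ratio compares libraries and not the amounts of the 2 transcripts.

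**Figure D2:**
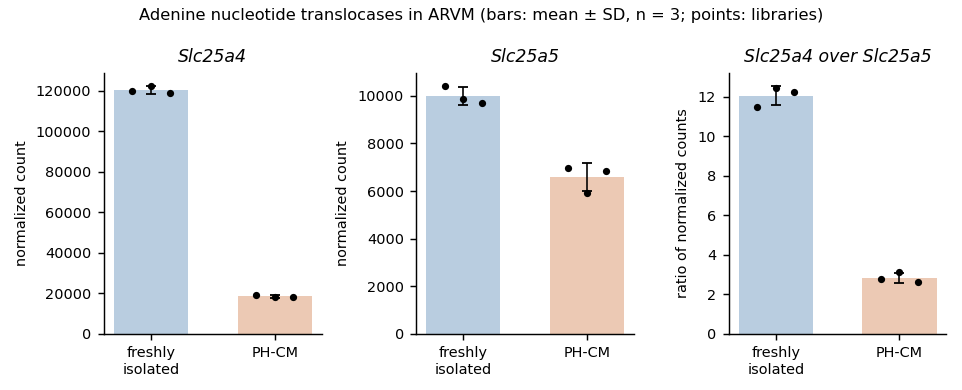
Normalized counts of Slc25a4 and Slc25a5 and the ratio between them in ARVM, with bars for the mean, whiskers for the SD (n = 3) and points for libraries. Slc25a4 dropped to 15.4% of its freshly isolated level and Slc25a5 to 65.8%, and the ratio went from 12.05 ± 0.50 to 2.83 ± 0.25 (SD, n = 3).

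The carriers Slc25a3, Slc25a20 and Slc25a11, which move phosphate, acylcarnitines and oxoglutarate, fell too. Slc25a3, the phosphate carrier that supplies ATP synthase, had 38161, 41751 and 40499.9 normalized counts in freshly isolated ARVM and 12374, 9928 and 10969.9 in PH-CM ARVM (log2 fold change −1.86, standard error 0.09, adjusted p = 1.14e-06 from limma). Slc25a20, the carnitine-acylcarnitine carrier that brings fatty acids to β-oxidation, had 5822, 5722 and 5381 against 2117, 2046 and 1799 (log2 fold change −1.51, standard error 0.07). Slc25a11, the oxoglutarate-malate carrier of the malate-aspartate shuttle, had 5996, 6672 and 6437 against 2004, 1726 and 1817 (log2 fold change −1.79, standard error 0.07). In these 3 genes between 27.6% and 35.2% of the freshly isolated level remained, and the groups were far from overlapping. The aspartate-glutamate carriers Slc25a12 and Slc25a13, the partners of Slc25a11 in that shuttle, were not among the listed ARVM genes, which says nothing about their level.

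Slc25a21, the carrier of oxoadipate and related dicarboxylates in lysine and tryptophan breakdown, had the largest fold change of any member. It had 225, 192 and 179 normalized counts in freshly isolated ARVM and 9.83, 14.7 and 15.2 in PH-CM ARVM, a drop to 6.68% (log2 fold change −3.82, standard error 0.28, limma adjusted p = 8.56e-06). These rest on 142 to 179 reads per freshly isolated and 13 to 18 reads per PH-CM library. Slc25a34, a carrier without an established substrate, had 1907, 1863 and 1598 against 618, 373 and 504 normalized counts (log2 fold change −1.87, standard error 0.17). Slc25a26, which brings S-adenosylmethionine into the matrix, fell by 1.35 on the log2 scale (standard error 0.15), the largest of the 3 listed carriers of nucleotides and cofactors, and Slc25a15, the ornithine carrier of the urea cycle, went from 94, 125 and 122 reads, a mean of 136 ± 11.5 normalized counts (SD, n = 3), to 79, 71 and 90 reads, a mean of 65.7 ± 9.08 (log2 fold change −1.05, standard error 0.21).

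Smaller falls, each with a log2 fold change between −0.53 and −0.36, were found for Slc25a23 (ATP-Mg and phosphate, calcium regulated), Slc25a46 (an outer membrane protein of the family), Slc25a28 (mitoferrin-2, iron) and Slc25a32 (folate and FAD). In these 4 the groups lay close together without overlapping. The smallest fall was that of Slc25a32, with 462, 402 and 380 normalized counts in freshly isolated ARVM and 318, 320 and 325 in PH-CM ARVM. Its adjusted p was 0.0175 from limma and rose to 0.0501 without freshly isolated 4.

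For 3 carriers the counts were too low for a firm statement. Slc25a2, a second ornithine carrier, had 43, 52 and 56 reads in the freshly isolated libraries and 19, 27 and 28 in the PH-CM libraries (log2 fold change −1.55, standard error 0.31, adjusted p = 0.00197 from limma). Slc25a18, a glutamate carrier, had 13, 8 and 16 reads against 8, 5 and 5, and its adjusted p of 0.0124 from limma became 0.0568 with DESeq2. Slc25a47, known mainly from liver, had 6, 9 and 7 reads against 0, 7 and 0. PH-CM B thus had as many reads of Slc25a47 as a freshly isolated library, and a count of 0 allows up to 3 reads, which covers counting error only. The adjusted p of Slc25a47 was 0.0175 from limma, 0.0568 with edgeR and 0.183 with DESeq2, and from limma 0.0699 without PH-CM A and 0.0645 without PH-CM C, so its difference did not hold. With edgeR 36 and with DESeq2 35 of the 37 members passed.

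A set of 5 carriers rose, 3 of them by more than 1 on the log2 scale. Slc25a27 (UCP4, an uncoupling-like protein known mainly from neurons) rose most, from 20.6, 25.7 and 22.7 normalized counts to 134, 182 and 173, a 7.09-fold higher mean (log2 fold change 2.77, standard error 0.25, adjusted p = 2.87e-05 from limma). Slc25a1, the citrate carrier that exports citrate for fatty acid and sterol synthesis, had 174, 265 and 299 against 842, 660.0 and 876, 3.22-fold higher (log2 fold change 1.71, standard error 0.21). Slc25a24, a calcium-regulated ATP-Mg and phosphate carrier, had 324, 244 and 290.3 against 783, 747 and 835, 2.75-fold higher (log2 fold change 1.47, standard error 0.13). For these 3 the lowest PH-CM library was more than the highest freshly isolated library by a wide margin, and 32.3% of all listed genes rose by as much as 1 on the log2 scale.

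The other 2 rises were small. Slc25a10, the dicarboxylate carrier that exchanges malate or succinate for phosphate, had 207, 247 and 238 normalized counts in freshly isolated ARVM and 367, 305 and 431 in PH-CM ARVM (log2 fold change 0.66, standard error 0.16, adjusted p = 0.00562 from limma and 0.0591 with the unequal-variance test). Slc25a17, a member of the family that serves peroxisomes, had 812, 630 and 658 against 872, 864 and 899 (log2 fold change 0.34, standard error 0.11). Freshly isolated 4 lay close to the PH-CM libraries for Slc25a17. Its adjusted p of 0.0159 from limma rose to 0.0565 without freshly isolated 5 and to 0.0533 without freshly isolated 6.

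**Figure D3:**
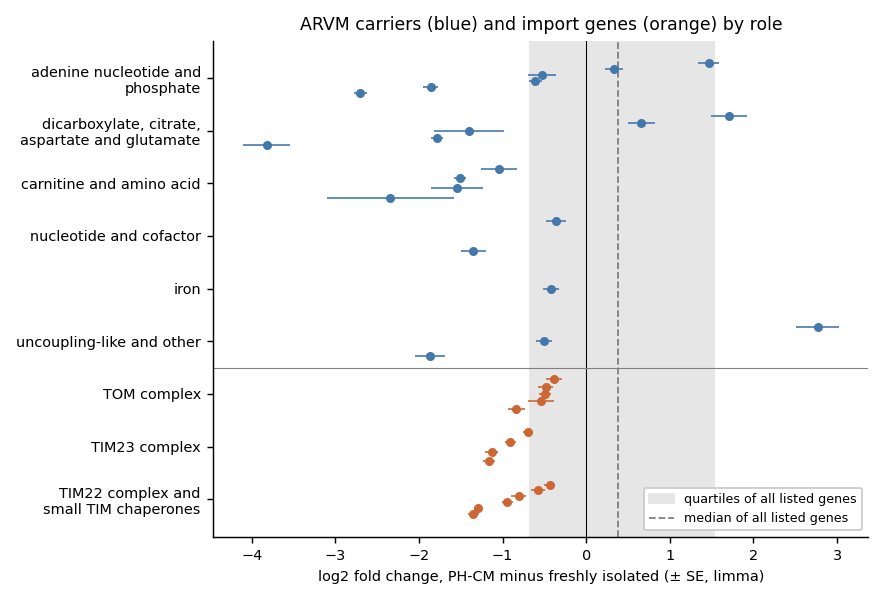
Log2 fold changes of the ARVM members reported by name (points, with the standard error from limma) by role, carriers in blue and import genes in orange, over the quartiles (grey band) and the median (dashed line, 0.37) of all 7052 listed genes. Import genes lie between −1.35 and −0.39, and carriers between −3.82 and 2.77. Both directions occur in the adenine nucleotide and phosphate, the dicarboxylate and the uncoupling-like groups.

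The import genes fell together and over a narrow range. The 5 TOM genes had the smallest median fall of the 3 import groups, a log2 fold change of −0.49. Tomm20, a receptor for presequences, had 4355, 3470 and 3633 normalized counts in freshly isolated ARVM and 2794, 2733 and 2625 in PH-CM ARVM (log2 fold change −0.48, standard error 0.09, adjusted p = 0.00116 from limma and 0.0584 with the unequal-variance test). Tomm70a, the receptor to which chaperones bring carrier precursors (now named Tomm70), had 1825, 1446 and 1460 against 892, 858 and 882 (log2 fold change −0.84, standard error 0.10). Freshly isolated 4 was the highest library for both receptors. Tomm22 (log2 fold change −0.49), which links receptors and pore, and Tomm7 (−0.39), a small subunit of the complex, fell as well. Tomm40l, a relative of the pore protein, had 272, 283 and 311 against 226.1, 172 and 201 (log2 fold change −0.54, standard error 0.16), and Tomm40 itself was not listed.

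The 4 listed genes of the TIM23 complex had a median log2 fold change of −1.02. Timm23, its channel subunit, had 4776, 4636 and 4489.5 normalized counts in freshly isolated ARVM and 2854, 3052 and 2689.6 in PH-CM ARVM (log2 fold change −0.69, standard error 0.06, adjusted p = 2.69e-05 from limma). Timm17a, the channel's partner subunit, had 6330.3, 5954 and 5511 against 3178, 3236 and 3035 (log2 fold change −0.91, standard error 0.07). Timm44, which tethers the import motor to the channel, had 3548, 3244 and 3308 against 1599, 1623 and 1396 (log2 fold change −1.13, standard error 0.08). Timm21, which couples TIM23 to the TOM complex, had 1539.8, 1492 and 1468 against 713, 664 and 635 (log2 fold change −1.16, standard error 0.07). The ratio of Timm23 to Timm17a normalized counts went up from 0.783 ± 0.0303 to 0.909 ± 0.0301 (SD, n = 3), with a two-sided exact permutation p of 0.1, the smallest possible. The annotation holds 8 pseudogenes named after Timm23, and reads shared with them make its level uncertain. A pseudogene of that name is held for 12 ARVM members, to which the same limit applies. Among these are Tomm7 with 4 and Slc25a3, Tomm20 and Timm8a1 with 2 each.

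Among the 6 genes of the carrier import route the small TIM chaperones Timm10 and Timm8b fell most of all import genes. Timm10 had 3518, 3219 and 3279.9 normalized counts in freshly isolated ARVM and 1349.9, 1349 and 1221 in PH-CM ARVM (log2 fold change −1.35, standard error 0.07, adjusted p = 1.11e-06 from limma). Timm8b had 11909, 11967 and 11319 against 4866, 4679 and 4778 (log2 fold change −1.30, standard error 0.05). Timm9, which assembles with Timm10 into a hexamer, fell by 0.81 on the log2 scale (standard error 0.09), and Timm22, the channel that inserts carriers, by 0.57 (standard error 0.08). The ratio of Timm10 to Timm9 normalized counts was 2.503, 2.74 and 2.56 in freshly isolated ARVM and 1.80, 1.74 and 1.80 in PH-CM ARVM. The second pair of this kind showed the same unevenness, since Timm8a1 fell by 0.94 (standard error 0.06) and its partner Timm13 by 0.44 (standard error 0.06). Timm8a1 had 2675, 2559 and 2891.5 normalized counts in freshly isolated ARVM and 1364, 1440 and 1412.5 in PH-CM ARVM. The ratio of Timm8a1 to Timm13 went from 0.877 ± 0.0346 to 0.619 ± 0.0521 (SD, n = 3). In both pairs the libraries of the groups did not overlap in the ratio, and the two-sided exact permutation p was 0.1, the smallest possible. No listed ARVM gene overlapped between the groups, so separation of a ratio says little by itself. The share of other gene pairs that separate was not computed, and this limit holds for the other ratios above too.

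Genes that work with the members but carry other names were mostly lower too. Of 10 carriers and channels outside the SLC25A names, 8 were listed for ARVM, 7 of them lower and 1 higher, with a median log2 fold change of −1.08. The subunits of the mitochondrial pyruvate carrier, Mpc1 (log2 fold change −2.34, standard error 0.06) and Mpc2 (−2.71, standard error 0.07), fell, and the outer membrane channel Vdac1 fell from 29036 ± 1165 to 9248 ± 338 normalized counts (SD, n = 3). Mtch1, an outer membrane relative of the SLC25 family, rose by a log2 fold change of 0.65 (standard error 0.10). Of 22 import partners 17 were listed, 15 lower and 2 higher, with a median of −0.95. The co-chaperone Dnajc15 (−2.08) of the import motor and the nucleotide exchange factor Grpel1 (−1.46) fell most, the motor chaperone Hspa9 fell by 0.53, and the exceptions were Mtx1 (0.43), a metaxin of the outer membrane sorting machinery, and Gfer (0.46), the oxidase that serves Chchd4 in the intermembrane space.

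Markers of cell types moved with these groups. Of 12 cardiomyocyte markers 11 were listed and all 11 fell (median log2 fold change −3.15), with a summed level of 1563104 to 1629156 normalized counts in freshly isolated and 117602 to 140115 in PH-CM ARVM. All 12 fibroblast markers rose, from a sum of 4701 to 5788 to one of 113014 to 161780.0, as did all 8 macrophage and leukocyte markers (254 to 317 against 7038 to 10501) and all 6 smooth muscle markers (1368 to 1669.6 against 28042 to 46211). Of 8 endothelial markers 7 fell and 1 rose (8986 to 11250.5 against 3627 to 4201), and of 5 erythroid markers 3 were listed and fell, with Hba1 and Hbb at 0 in all PH-CM libraries. No listed marker of the other types was at 0 throughout a group. In bulk RNA fewer cells of a type and less RNA per cell cannot be told apart, and the part of these shifts in the members' changes was not tested.

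To set the members' regulatory sequence beside these values, the 250 bases before the gene start were read from the RefSeq promoter windows of GRCr8, a later rat assembly than the RN6 of the authors, in which 33 of the 37 members had a window (all 15 import genes and 18 carriers, with Slc25a26, Slc25a32 and Slc25a46 among those without one). Windows are shown for the translocase pair, for the carriers with the largest fall and the largest rise, and for the import genes with the largest falls, each written 5′ to 3′ along the gene. They lie at chr16:52805271-52805520 (plus strand) for Slc25a4, chrX:120897366-120897615 (plus) for Slc25a5, chr6:80437721-80437970 (minus) for Slc25a21, chr9:24804058-24804307 (plus) for Slc25a27, chr3:90314889-90315138 (plus) for Timm10 and chr8:59850487-59850736 (plus) for Timm8b. Capitals mark every match to one of 5 motifs that were chosen after the values had been seen, namely the ETS core CCGGAAG, the estrogen-related receptor motif AAGGTCA, the NRF1 motif of 10 bases and the E-box CACGTG, each on both strands, and TATAA on the gene strand.
Slc25a4: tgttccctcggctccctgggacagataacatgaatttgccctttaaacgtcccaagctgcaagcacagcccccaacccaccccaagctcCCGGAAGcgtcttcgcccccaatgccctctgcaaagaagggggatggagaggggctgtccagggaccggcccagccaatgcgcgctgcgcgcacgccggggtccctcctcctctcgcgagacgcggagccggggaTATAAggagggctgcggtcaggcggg
Slc25a5: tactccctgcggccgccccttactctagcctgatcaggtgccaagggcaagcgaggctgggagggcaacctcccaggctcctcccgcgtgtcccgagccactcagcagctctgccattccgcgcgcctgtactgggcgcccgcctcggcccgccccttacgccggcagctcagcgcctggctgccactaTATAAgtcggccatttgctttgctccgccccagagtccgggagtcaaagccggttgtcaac
Slc25a21: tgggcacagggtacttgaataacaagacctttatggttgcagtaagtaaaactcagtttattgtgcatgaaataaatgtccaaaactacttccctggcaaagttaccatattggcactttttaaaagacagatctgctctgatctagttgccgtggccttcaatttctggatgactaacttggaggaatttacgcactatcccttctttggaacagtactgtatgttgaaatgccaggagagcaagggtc
Slc25a27: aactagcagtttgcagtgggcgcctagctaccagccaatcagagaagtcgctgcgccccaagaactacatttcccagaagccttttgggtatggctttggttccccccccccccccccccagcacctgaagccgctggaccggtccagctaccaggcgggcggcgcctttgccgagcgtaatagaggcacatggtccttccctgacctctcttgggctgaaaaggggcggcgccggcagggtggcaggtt
Timm10: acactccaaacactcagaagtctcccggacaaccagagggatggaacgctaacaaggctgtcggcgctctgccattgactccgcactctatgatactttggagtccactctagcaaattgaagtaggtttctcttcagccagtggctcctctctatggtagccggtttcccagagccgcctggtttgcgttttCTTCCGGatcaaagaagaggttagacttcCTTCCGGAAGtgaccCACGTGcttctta
Timm8b: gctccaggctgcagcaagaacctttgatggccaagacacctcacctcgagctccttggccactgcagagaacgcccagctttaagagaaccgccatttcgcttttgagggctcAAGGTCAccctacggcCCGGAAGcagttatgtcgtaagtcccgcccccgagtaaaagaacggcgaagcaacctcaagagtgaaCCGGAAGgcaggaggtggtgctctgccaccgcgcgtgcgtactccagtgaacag

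Both translocase windows hold a TATAA match, which starts 26 bases before the gene start in Slc25a4 and 61 bases before it in Slc25a5, and that of Slc25a4 also holds an ETS core. The windows of Slc25a21 and Slc25a27 hold no match. Timm10 has 3 matches to the ETS core, 2 of them overlapping on opposite strands, and an E-box, and Timm8b has 2 ETS cores and a receptor motif. The ETS core was present in 6 of the 15 import windows (40.0%) and 3 of the 18 carrier windows (16.7%), against 13.8% of the 5282 windows of listed ARVM genes and 7.27% of all 33465 windows. The carriers with an ETS core were Slc25a3, Slc25a4 and Slc25a20, and the import genes were Timm8b, Timm10, Timm23, Tomm20, Tomm22 and Tomm70a. NRF1 matches were found in 3 import windows (Timm21, Tomm7 and Tomm20) and in none of the 18 carrier windows, against 8.78% of the listed genes and 3.75% of all windows. The receptor motif was found in 3 members (Slc25a34, Timm8b and Timm23) and the E-box in 3 (Slc25a2, Timm8a1 and Timm10), against 2.48% and 7.65% of the listed genes and 3.99% and 5.59% of all windows, and TATAA in 3 (the translocases and Timm9), against 9.67% and 16.7%. A match is a string of letters and not a shown binding site, and the shares were not tested.

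In Cfib the listed members split in both directions. They made up 0.473% of the listed Cfib genes, against 0.525% for the members in the ARVM table. The paper describes normalized count matrices, but whole reads were not recovered from the deposited Cfib values, which are treated here as a signal. Whether they are scaled by gene length was not stated, the depth is unknown, and levels are not compared between genes. Of the 10 members all passed the threshold, 5 lower and 5 higher, in a table where 97.5% of all genes passed, 39.4% as lower and 58.2% as higher. On the log2(value + 1) scale a change of at least 1 was reached by 1 member as higher (SLC25A15) and none of the 10 as lower. The shares over all listed genes were 19.7% and 14.3%. That scale understates the change of low signals, such as those of SLC25A35 and SLC25A27. The mean of SLC25A35 fell to 43.1% of the CO level and that of SLC25A27 rose to 206.9%. With a pseudocount of 0.1 the log2 fold change of SLC25A27 was 1.02. The median log2 fold change of the 9 carriers was 0.52, against 0.33 over all listed genes. It was 0.26 both after median-of-ratios scaling and with a pseudocount of 10, against 0.07 and 0.15 over all listed genes. In all 10 the groups did not overlap, as in all 2115 listed genes. Median-of-ratios scaling of the libraries lowered the median over all genes by 0.26 on the log2 scale and turned the direction of no member.

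SLC25A1, the citrate carrier, fell, with a signal of 235.7, 235.6 and 282.7 in CO Cfib and 135.8, 136.0 and 130.9 in PH Cfib (log2 fold change −0.89, standard error 0.09, adjusted p = 0.000152 from limma). The PH libraries lay close together and far under the CO libraries. SLC25A25, a calcium-regulated ATP-Mg and phosphate carrier, had 6.36, 6.90 and 5.18 against 3.10, 3.36 and 3.26 (log2 fold change −0.75, standard error 0.11). SLC25A35, of no established substrate, had 3.20, 2.29 and 2.71 against 1.14, 0.990 and 1.41 (log2 fold change −0.77, standard error 0.12). These 3 carriers had 43.1% to 53.4% of the CO level in PH Cfib. TOMM40L, the only import gene listed, fell less, from 10.03, 10.2 and 12.2 to 8.50, 7.16 and 8.63 (log2 fold change −0.38, standard error 0.11). Its adjusted p of 0.0138 from limma rose to 0.0538 without PH Cfib 2.

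SLC25A15, the ornithine carrier, rose most, from 21.1, 18.6 and 8.42 in CO Cfib to 36.6, 36.3 and 33.6 in PH Cfib (log2 fold change 1.19, standard error 0.31, adjusted p = 0.00890 from limma). Its log2 fold change was under 1 without CO Cfib 3 (0.81) and after median-of-ratios scaling (0.91). CO Cfib 3 had less than the other CO libraries, as it did for SLC25A30, a kidney carrier of the uncoupling-like group, with 11.5, 10.6 and 7.04 against 16.1, 13.9 and 16.4 (log2 fold change 0.64, standard error 0.18, adjusted p = 0.0113 from limma). After the median-of-ratios scaling SLC25A30 no longer passed, at a log2 fold change of 0.37 and a limma adjusted p of 0.0799. SLC25A12, the calcium-activated aspartate-glutamate carrier, had 13.9, 16.0 and 12.4 against 22.7, 22.2 and 22.7 (log2 fold change 0.65, standard error 0.10). SLC25A27 had 2.60, 2.48 and 1.94 against 4.15, 4.80 and 5.57 (log2 fold change 0.80, standard error 0.13). SLC25A40, a mitochondrial glutathione carrier, had 7.24, 6.44 and 6.04 against 9.09, 9.69 and 10.7 (log2 fold change 0.52, standard error 0.10). The PH libraries differed little from each other, with a median coefficient of variation of 8.64% over the members against 13.5% in CO Cfib. Over all listed genes it was 5.01% in PH and 13.7% in CO Cfib, so this is not particular to the members. When they were averaged into 1 sample, a setting chosen after the values had been seen, 5 of the 10 members passed, with SLC25A1, SLC25A25, SLC25A27 and SLC25A35 among them. In that fit the CO libraries alone give the spread, the lone PH sample is assumed to vary like them, and 49.1% of all listed genes passed.

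**Figure D4:**
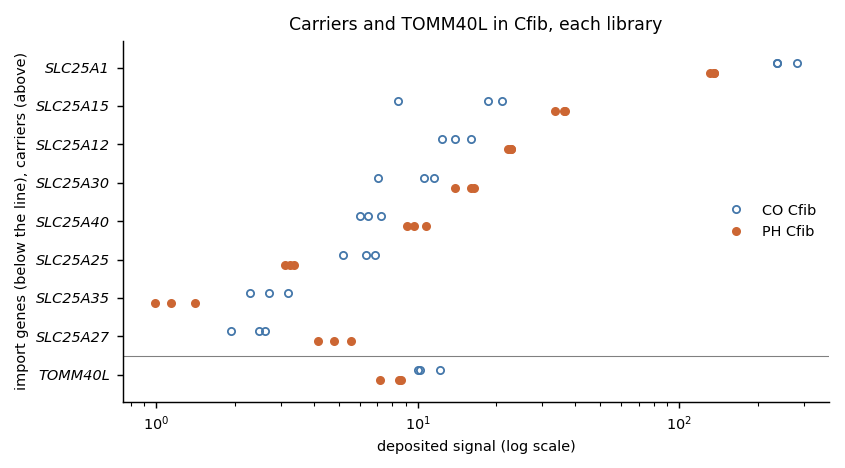
Deposited signal of the carriers reported by name (above the line) and TOMM40L (below it) in each of the 3 CO (open circles) and 3 PH (filled circles) Cfib libraries, on a log axis. The PH libraries of SLC25A1 lie between 130.9 and 136.0, to the left of its CO libraries, and CO Cfib 3 is the lowest library for SLC25A15 and SLC25A30.

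None of the 12 cardiomyocyte, 8 endothelial and 5 erythroid markers was listed for Cfib, which does not show that they were absent. Of 12 fibroblast markers 4 were listed and rose (summed signal 2225 to 3129 in CO and 7245 to 7575 in PH Cfib), of 6 smooth muscle markers 5 were listed, 4 higher and 1 lower, and of 8 macrophage and leukocyte markers 2, 1 in each direction. Their part in the members' changes was not tested. Of the related genes, UCP2 (log2 fold change −0.90, standard error 0.08), MTCH1 (0.46, standard error 0.10), GRPEL2 (−0.24, standard error 0.09) and OXA1L (−0.31, standard error 0.06) were listed and passed, which were 2 of 10 carriers and channels and 2 of 22 import partners.

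The members listed for both can be set side by side in 4 cases, from comparisons that share no libraries and come from different species, cells and contrasts. Slc25a27 rose and Tomm40l fell in both. Slc25a1 rose in PH-CM ARVM (log2 fold change 1.71) and fell in PH Cfib (−0.89), and Slc25a15 fell in PH-CM ARVM (−1.05) and rose in PH Cfib (1.19). For both genes no test of the difference between the contrasts was made. The nucleotide translocases, the phosphate carrier, the acylcarnitine carrier and all TIMM genes were listed for ARVM only.

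**Figure D5:**
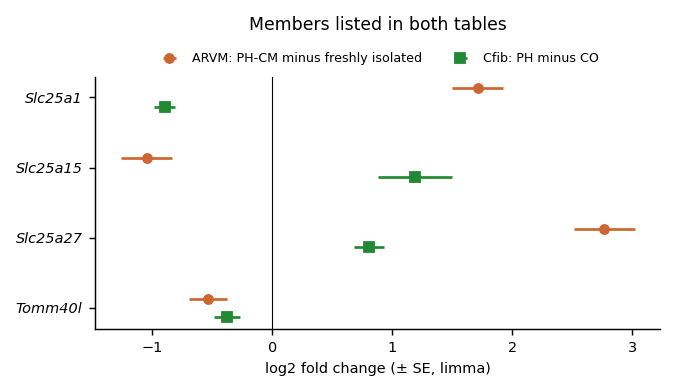
Log2 fold changes with the standard error from limma for 4 members listed in both tables, circles for PH-CM minus freshly isolated ARVM and squares for PH minus CO Cfib. Slc25a1 and Slc25a15 lie on opposite sides of 0 in the 2 comparisons, and Slc25a27 and Tomm40l on the same side.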

How the data were processed

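RNAseq was analysed from 12 libraries, 3 per group. Per the paper's methods and the labels, ribosomal RNA was depleted, reads were processed with HISAT2 and StringTie on RN6 and BosTau8, values were normalized with DESeq2, and only genes with p under 0.05 by an unequal-variance test were deposited. The deposited ARVM signal is a count scaled by each library's size factor, and dividing by the step of a library gave whole reads for all values within 0.01. Whole reads were not recovered from the deposited Cfib signal. From these values, log2(value + 1) was fitted in limma 3.58.1 (R 4.3.3, moderated variance with a trend) over each whole table, with Benjamini-Hochberg adjustment. Because both tables hold selected genes, adjusted p-values are not those of a whole transcriptome. edgeR 4.0.16 and DESeq2 1.42.0 on the recovered ARVM reads were alternatives. The scripts were tested on simulated data.

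Per-library values are given for the main translocases and import subunits, the 5 largest rises and falls per class, and members listed in both tables. The values of 1 carrier are not reported here, although it is included in the counts, medians and shares. Members, roles and lists were chosen with earlier results of these data known. Ratios between members were not among the planned comparisons. Motifs and printed promoters were chosen after the values were seen. Promoter windows are from RefSeq (GRCr8), for which 36 of 37 ARVM members matched by symbol and 37 with synonyms.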

Additional observations from a re-analysis of the deposited data

How the results depend on the processing

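No member changed direction under any setting in which it was tested. Of the 37 ARVM members 31 passed wherever they were tested, 30 in every setting and 1 that the minimum mean left out. Of the 10 Cfib members 8 did so, 3 of which the minimum mean left out. The setting with averaged PH libraries, which leaves 1 PH sample, is set aside here. In ARVM the carrier median moved to −0.54 with a minimum mean of 50 and to −0.64 with a pseudocount of 10, and 3 members passed as higher under the unequal-variance test. In Cfib 3 members passed as lower with a minimum mean of 5, which leaves fewer members. The Cfib carrier median was 0.26 after median-of-ratios scaling and with a pseudocount of 10. With the PH libraries averaged, where the CO libraries alone give the spread, the carrier median was 0.52. Leaving out 1 library at a time gave 36 to 37 ARVM members (21 to 22 carriers, 15 import genes, 4 to 5 higher, 31 to 32 lower), a carrier median of −0.90 to −0.80 and an import median of −0.87 to −0.73, and 9 to 10 Cfib members (4 to 5 lower, 5 higher) with a carrier median of 0.44 to 0.58.

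With the replicate block 10 of 10 Cfib members passed and the carrier median was 0.52. The deviations of CO and PH libraries of the same number correlated at 0.258, 0.0312 and 0.259, so the numbers were not taken to pair the samples. No paired analysis was possible for ARVM because the groups share no replicate numbers.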
